A study of Rattus norvegicus with 4 samples.

Results

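The genes described here encode the DNA replication machinery of the rat: the proteins that mark and license origins, unwind and copy the DNA, join the new strands and supply the nucleotides. The members were 46 genes chosen by name, and a probe belonged to a member when the RefSeq accession in the array files mapped to that gene's symbol. By this rule 43 of the 46 genes were measured, by 56 of 45598 probes, among 16581 named genes in all. Mcm5, Rpa1 and Top2a had no matching probe and are not analysed here. The cells were NR8383, an alveolar macrophage line established by lavage of a normal rat lung and described in the labels as 20 passages old. All 4 arrays come from 1 group of 4 biological replicates, grown for 48 h in medium with 15% serum. Each was then given NRCWE049, an NH2-functionalized carbon nanotube, at 1.2 cm²/cm² for 4 h. The series describes unexposed cells as the control, and these were not analysed here, so the values describe exposed cells and say nothing about a change caused by the nanotubes. An array reads the average over all cells of a culture, so fewer cycling cells and less RNA per cycling cell cannot be told apart.

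DNA is copied once per cell cycle. In G1 the origin recognition complex, Cdc6 and Cdt1 load the ring-shaped Mcm2-7 helicase onto DNA as an inactive double ring, and in S phase Cdc45 and the GINS complex join the ring and switch it on. Polymerase alpha-primase then lays down primers, polymerases delta and epsilon extend them while held by the sliding clamp PCNA, and Fen1 and Lig1 finish the lagging strand. Many of these genes are textbook targets of the E2F transcription factors, which bind promoter words of the type searched below. Alveolar macrophages in the lung divide slowly, whereas a cell line such as NR8383 grows continuously.

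The promoters are shown first because the choice by name did not read their sequence. Many of the names are textbook E2F targets, so the share with E2F words is not independent of that choice. The RefSeq promoter table (GRCr8 assembly) gave 300 bases for 38 of the 46 genes, 250 before and 50 after the annotated start. Mcm4, Orc1, Orc4, Cdc6, Gins4, Rpa3, Rrm2 and E2f1 were not matched in it. The E2F-type words searched were TTTCCCGC, TTTGGCGC, TTTCGCGC and TTTGCCGC, on both strands and with overlapping matches counted. At least 1 such word stood in 18 of the 38 promoters (47.4%), against 2.14% of all 33469 promoters in the table and 4.39% of the 7714 promoters of genes detected in these cells. In 8 of the 38 promoters there were 2 or more matches, against 28 of all 33469 and 16 of the 7714 of detected genes. In Mcm2, Mcm6 and Gins1 the 2 matches overlap in 1 stretch of 12 bases, so they are not separate sites. The word CCAAT, on both strands, which can share 1 base with an E2F word, was in 23 of the 38 (60.5%), against 37.5% of all promoters and 38.5% of those of detected genes. TATAAA, on both strands, was in 0 of the 38 promoters, against 14.2% of all and 7.32% of those of detected genes. TTTGAA, on both strands, was in 4 of the 38 (10.5%), against 18.3% of all and 11.8% of those of detected genes. The median GC content was 59.8% in the members' promoters, 51.7% in all promoters and 60.3% in those of detected genes. The words are matches of letters in a window and not measured binding sites.

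The following windows, all before the annotated start and written 5′ to 3′ in the direction of the gene, show the matches in capitals with up to 25 bases on each side. They were chosen for 4 subunits of the helicase ring, 1 factor that activates it, 1 enzyme of nucleotide supply and the 1 measured gene that was not detected on all arrays.
Mcm2 (chr4:122918095-122918133, minus strand, GRCr8): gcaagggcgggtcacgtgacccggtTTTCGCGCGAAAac
Mcm5 (chr19:13488575-13488636, plus strand, GRCr8): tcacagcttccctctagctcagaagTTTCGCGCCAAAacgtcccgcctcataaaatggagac
Mcm6 (chr13:42404455-42404516, minus strand, GRCr8): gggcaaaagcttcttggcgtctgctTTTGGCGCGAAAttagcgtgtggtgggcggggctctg
Mcm7 (chr12:22163198-22163255, minus strand, GRCr8): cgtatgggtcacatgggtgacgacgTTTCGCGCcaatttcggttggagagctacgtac
Gins1 (chr3:160184870-160184919, plus strand, GRCr8): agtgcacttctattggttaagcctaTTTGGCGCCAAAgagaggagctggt
Tyms (chr9:120776088-120776145, minus strand, GRCr8): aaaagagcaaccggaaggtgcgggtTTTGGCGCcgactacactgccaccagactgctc
Pola1 (chrX:62342495-62342552, minus strand, GRCr8): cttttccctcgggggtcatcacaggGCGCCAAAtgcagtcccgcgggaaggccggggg

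In Mcm2, Mcm5, Mcm6 and Gins1 the capitals run over 12 bases, because 2 matches on opposite strands overlap. The match shown began 14 bases before the annotated start in Mcm2, 25 in Gins1, 37 in Tyms and 52 in Mcm7, and 139, 172 and 213 bases before it in Mcm6, Pola1 and Mcm5. Mcm5 had another match 8 bases before the start and Mcm7 another 233 bases before it, which are not shown.

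Nearly all measured members were detected in the exposed macrophages. A gene counted as detected when at least 1 probe was well above background, by Agilent's flag, on 4 of 4 arrays. This held for 42 of 43 members (97.7%), against 52.5% of all named genes. The spot signal over the local background, averaged over spots and arrays, ran from 2.40-fold for Orc5 to 691-fold for Mcm2 and was above 10-fold for 30 of the 42 detected members. It was below 5-fold for 8 members, the 6 genes of the origin recognition complex, Pola2 and Pole2. Brightness depends on the probe as well as on the RNA, so levels are followed between arrays and never set against those of another gene. On the same arrays 7 of 7 measured macrophage markers were detected, and 0 of 5 epithelial, 0 of 4 fibroblast, 0 of 3 lymphocyte and 0 of 2 neutrophil markers. Probes detected numbered 19143 to 19311 per array, no spot was saturated, and the number of arrays limits the precision.

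Levels are log2 signals from which the array's own 75th percentile, over probes detected on every array, was subtracted, and an SD is over the 4 arrays. The replication genes were close between arrays. Their median SD was 0.114 against 0.151 for all 8713 detected genes, and the SD of 30 of the 42 members lay below the median of all detected genes. Without replicate 1 the median SD was 0.0701 for the members and 0.116 for all detected genes. Bright probes vary less than dim ones, so the SD was also set against the SD expected at the same level, and 29 of 42 members (69.0%) lay below it, against 53.4% of all detected genes. The highest array exceeded the lowest by 1.03-fold to 1.63-fold, with a median of 1.20-fold, and 2 members (Gins2 and Pole2) passed 1.5-fold. No member passed 2-fold, where 2.66% of all detected genes did. In the limma test of residual variances 0 of 42 members varied more than genes of like level after Benjamini-Hochberg adjustment over all 8713 genes, against 0.0115% of all genes. At an unadjusted p under 0.05 there were 0 members, against 4.30% of all genes. This count was 1 member with the median of all probes, with normexp background correction or without replicate 1. In the same order 434, 368 and 393 of all genes passed. The smallest adjusted p among the members was 0.969, from limma, and a p of this kind does not show that the arrays were equal.

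**Figure D1:**
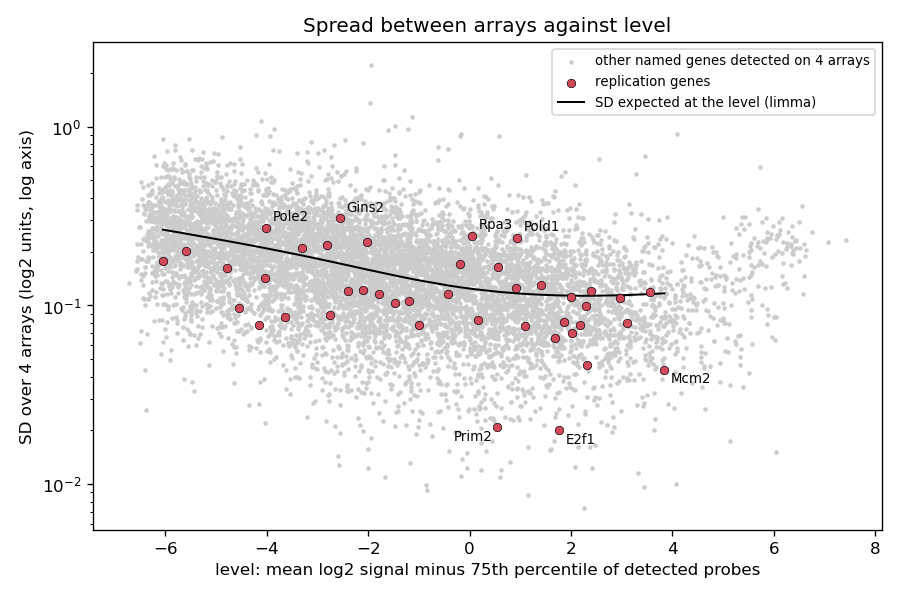
SD over 4 arrays (log2 units, log axis) against the mean log2 level, for the 42 detected replication genes (red), the other detected named genes (grey) and the SD that limma expects at each level (line). Of the 42 red points, 29 lie below the line, with E2f1 and Prim2 lowest and Gins2 highest.

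Of the 6 genes of the origin recognition complex, the ATPase that marks origins, all 6 were detected at low signal. Orc1, its largest subunit, stood at a log2 level of -4.66, -4.82, -5.00 and -4.66 in replicates 1 to 4 (mean -4.78 ± 0.16, SD, n = 4). Replicate 3 was lowest for Orc1, and replicates 1 and 4 were nearly equal. The mean log2 level and SD were -5.59 ± 0.20 for Orc2, -4.54 ± 0.10 for Orc3, -4.04 ± 0.14 for Orc4, -6.04 ± 0.18 for Orc5 and -4.14 ± 0.08 for Orc6. Replicate 4 was above the gene mean for 6 of these 6 genes, against 51.5% of all detected genes, and replicate 3 for 0 of 6, against 45.5%. For Orc3 the deviation on replicate 4 was only 0.004. Its second probe went the other way, at 0.10 on replicate 3 and -0.11 on replicate 4. These probes were among the dimmest of the members, at 2.40-fold to 4.66-fold over the local background.

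The licensing factors were all detected. Cdc6, the ATPase that helps to load the helicase, had log2 levels of -1.33, -1.53, -1.56 and -1.47 in replicates 1 to 4 (mean -1.48 ± 0.10). Cdt1, the loading partner that is destroyed once S phase begins, had -2.53, -3.05, -2.88 and -2.78 (mean -2.81 ± 0.22). Both genes were highest on replicate 1. Gmnn encodes geminin, the inhibitor of Cdt1, and stood at -2.39 ± 0.12 with its highest value on replicate 3.

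All 5 measured subunits of the Mcm2-7 ring were detected, and they did not share an array order. Mcm2 had log2 levels of 3.91, 3.82, 3.82 and 3.81 in replicates 1 to 4 (mean 3.84 ± 0.04), so that replicate 1 stood above the other arrays, which were nearly equal. Mcm6 was likewise highest on replicate 1 (mean -0.18 ± 0.17). Mcm3 (2.17 ± 0.08), Mcm4 (0.57 ± 0.16) and Mcm7 (2.96 ± 0.11) were lowest on replicate 1. The other Mcm4 probes were also lowest there. The second Mcm3 probe, at 4.06-fold over background, was highest there, 0.26 above its mean.

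The activators of the helicase were all detected, and 2 of them were among the members that varied most. Cdc45, which binds the ring and the GINS complex, had log2 levels of 1.92, 2.03, 2.09 and 2.00 (mean 2.01 ± 0.07). Gins2 had -2.39, -2.95, -2.63 and -2.25 (mean -2.56 ± 0.31), the largest SD of the detected members, with replicate 2 lowest and replicate 4 highest. This was its brighter probe, at 8.93-fold over background. The second Gins2 probe, at 2.02-fold, was highest on replicate 3 (0.35) and lowest on replicate 4 (-0.16), as deviations from its mean. The other GINS genes varied less, with 1.09 ± 0.08 for Gins1, -2.75 ± 0.09 for Gins3 and -0.99 ± 0.08 for Gins4. Mcm10, which links the helicase to polymerase alpha, had -2.31, -2.01, -1.99 and -1.76 (mean -2.02 ± 0.23), so replicate 1 was lowest and replicate 4 highest.

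Among the genes of primer synthesis, the catalytic subunit of polymerase alpha was the exception to detection. Pola1 was measured by 1 probe with a mean signal of 2.02-fold over the local background, well above background on replicates 1 and 2 and not on replicates 3 and 4. Its log2 levels were -6.24, -6.36, -6.92 and -6.77, and a laxer Agilent flag, set for signal significantly above background, was present on 4 of 4 arrays. The other 3 genes of the complex were detected on all arrays: the accessory subunit Pola2 (-3.64 ± 0.09), the primase catalytic subunit Prim1 (0.92 ± 0.13) and its partner Prim2. Prim2 had 0.53, 0.55, 0.52 and 0.56 (mean 0.54 ± 0.02), an SD lower than that of all but 0.551% of detected genes.

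Members of the polymerase delta and epsilon group had the largest median SD among role groups of at least 3 genes, 0.224. Pold1, the catalytic subunit of polymerase delta, had log2 levels of 0.89, 0.63, 1.13 and 1.13 (mean 0.95 ± 0.24), with replicate 2 lowest. Pole2, the second subunit of polymerase epsilon, had -4.03, -4.39, -3.80 and -3.84 (mean -4.01 ± 0.27), again with replicate 2 lowest. Pold2 ran otherwise (2.00 ± 0.11), with replicate 1 highest and replicate 4 lowest. Pole, the catalytic subunit of polymerase epsilon, was measured by 3 probes, of which the brightest gave -3.45, -3.44, -3.29 and -3.00 (mean -3.30 ± 0.21). The dimmest Pole probe was well above background on replicates 2, 3 and 4 and not on replicate 1, the only disagreement on detection between probes of a member.

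The sliding clamp and its loader varied little. Pcna had log2 levels of 1.78, 1.71, 1.64 and 1.65 (mean 1.70 ± 0.07). Rfc1, the large subunit of the loader, had -1.33, -1.08, -1.17 and -1.22 (mean -1.20 ± 0.11). The small subunits stood at 0.18 ± 0.08 for Rfc2, 1.87 ± 0.08 for Rfc3, -2.10 ± 0.12 for Rfc4 and -0.41 ± 0.12 for Rfc5. Pcna, Rfc2, Rfc4 and Rfc5 were highest on replicate 1, and Rfc1 and Rfc3 on replicate 2.

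Rpa3, the smallest subunit of the protein that coats single-stranded DNA, had 1 array apart from the rest. Its log2 levels were 0.41, -0.08, -0.08 and -0.08 in replicates 1 to 4 (mean 0.04 ± 0.24), so that replicate 1 was 1.40-fold above the lowest array and the other arrays were nearly equal. Rpa2 was also highest on replicate 1 (1.41 ± 0.13). A single array counted as apart when its gap to the next value, as a share of the whole range, passed Dixon's critical value for 4 samples. This was so for 2 of 42 members, Mcm2 and Rpa3, against 6.47% of all detected genes. The count was 4 members with dim areas of the arrays left out (6.27% of all genes) and 4 with scaling to the 75th percentile of all probes (5.91%). It was 3 with the median of all probes (5.25%), quantile normalization (6.75%), normexp background correction (6.34%) or the laxer detection flag (6.28%).

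Of the enzymes that finish the lagging strand, the flap nuclease gene Fen1 had log2 levels of 2.42, 2.33, 2.24 and 2.20 (mean 2.30 ± 0.10) and the ligase gene Lig1 a mean of 3.10 ± 0.08. Among the genes of nucleotide supply, Rrm1, the large subunit of ribonucleotide reductase, had 2.33, 2.25, 2.36 and 2.32 (mean 2.32 ± 0.05). Its small subunit Rrm2, which is made mainly in S phase, stood at 3.56 ± 0.12, thymidylate synthase (Tyms) at -1.79 ± 0.12 and thymidine kinase (Tk1) at 2.40 ± 0.12. Tyms and Tk1 were highest on replicate 1, and Rrm2 was lowest there. The second Rrm2 probe was also low there (-0.11 from its mean) and lowest on replicate 2 (-0.12). Spots of the first Rrm2 probe had an SD of 0.22 on replicate 1 and 0.051 to 0.087 on the other arrays. E2f1, a transcription factor that drives many of these genes, had 1.79, 1.76, 1.75 and 1.75 (mean 1.76 ± 0.02), the smallest SD of the detected members.

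**Figure D2:**
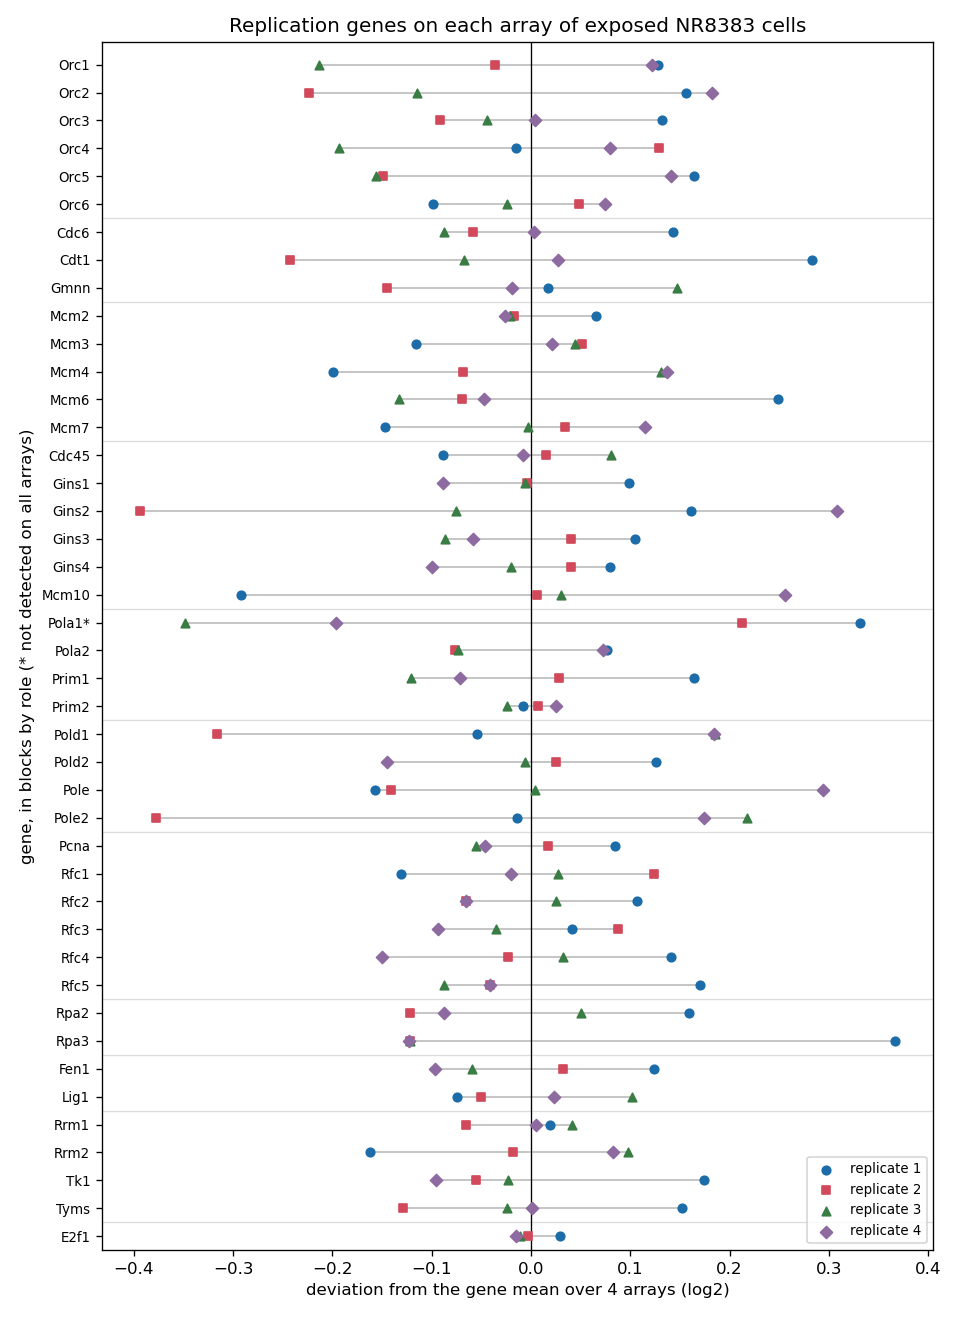
Deviation of each array from the mean log2 level of the gene, for the 43 measured replication genes in blocks by role; each point is 1 array and the grey line joins the lowest to the highest. Replicate 1 (blue circles) is the highest array for 23 of the 42 detected genes and the lowest for 10, among them Mcm3, Mcm4, Mcm7, Mcm10 and Rrm2. It is the highest for 6 with arrays scaled to the median of all probes, and for 51.2% to 59.5% of members in the other settings with 4 arrays.

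Across the members, replicate 1 stood above the other arrays in the scaling used here, and not when arrays were scaled to the median of all probes. In the other settings with 4 arrays replicate 1 was highest for 51.2% to 59.5% of members, against 32.7% to 40.4% of all genes. The median of all probes lay 7.72 log2 units below the zero used here, under the lowest detected level of each array (-6.78 to -6.97). The median deviation of the 42 detected members from their gene means was 0.082, -0.038, -0.022 and 0.002 in replicates 1 to 4, and over all 8713 detected genes it was 0.016, -0.010, -0.014 and 0.005. Replicate 1 was the highest array for 23 of 42 members (54.8%), against 34.6% of all detected genes. The lowest array was replicate 1 for 10 members, replicate 2 for 12, replicate 3 for 10 and replicate 4 for 10, where 28.5%, 27.4%, 20.4% and 23.7% of all detected genes were lowest. The shift was not tested, since members of a pathway are not replicates. When each array was scaled to the median of all its probes, the member deviations were 0.011, -0.197, 0.099 and 0.111, and replicate 1 was highest for 6 members (14.3%), now a lower share than the 18.6% of all detected genes. That scaling moved the median of all detected genes to -0.056, -0.169, 0.107 and 0.114. Such a scaling subtracts 1 number per array, so the difference between members and all genes, 0.067 on replicate 1, is the same by construction. Replicate 1 also held 3 of the 4 dim areas found on the arrays, and with these areas left out the member deviation there was 0.074. Among the detected members with a promoter in the table, the median deviation on replicate 1 was 0.082 for the 16 with an E2F word and 0.096 for the 18 without.

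Different probes of a gene and repeated spots of a probe show how far such small deviations can be read. Of the 43 measured members, 11 had several probes, which gave 13 pairs of the brightest with another probe. In 6 pairs the second probe was more than 20-fold over background, and there the deviations of both probes differed by at most 0.118 on any array. In the other 7 pairs the second probe was dimmer, and the largest difference on an array ran from 0.256 to 0.771. Both probes had the same highest array in 3 of the 6 brighter pairs (Mcm2, Rpa3 and Tk1) and in 1 of the 7 dimmer ones. This limit of 20-fold was chosen after the values were seen. For Rpa3 the second probe deviated by 0.41, -0.01, -0.16 and -0.24, beside 0.37, -0.12, -0.12 and -0.12 for the first, so the high value on replicate 1 appeared with both. For Tk1 the deviations on replicate 1 were 0.17 and 0.13, and for Mcm2 0.07 and 0.09. For Mcm4 the deviations of the 2 brighter probes on replicate 1 were -0.20 and -0.15. The dim probes of Mcm3 and Rrm1 did not follow the bright ones: on replicate 3 they deviated by -0.28 and -0.37, where the bright probes deviated by 0.04 and 0.04.

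**Figure D3:**
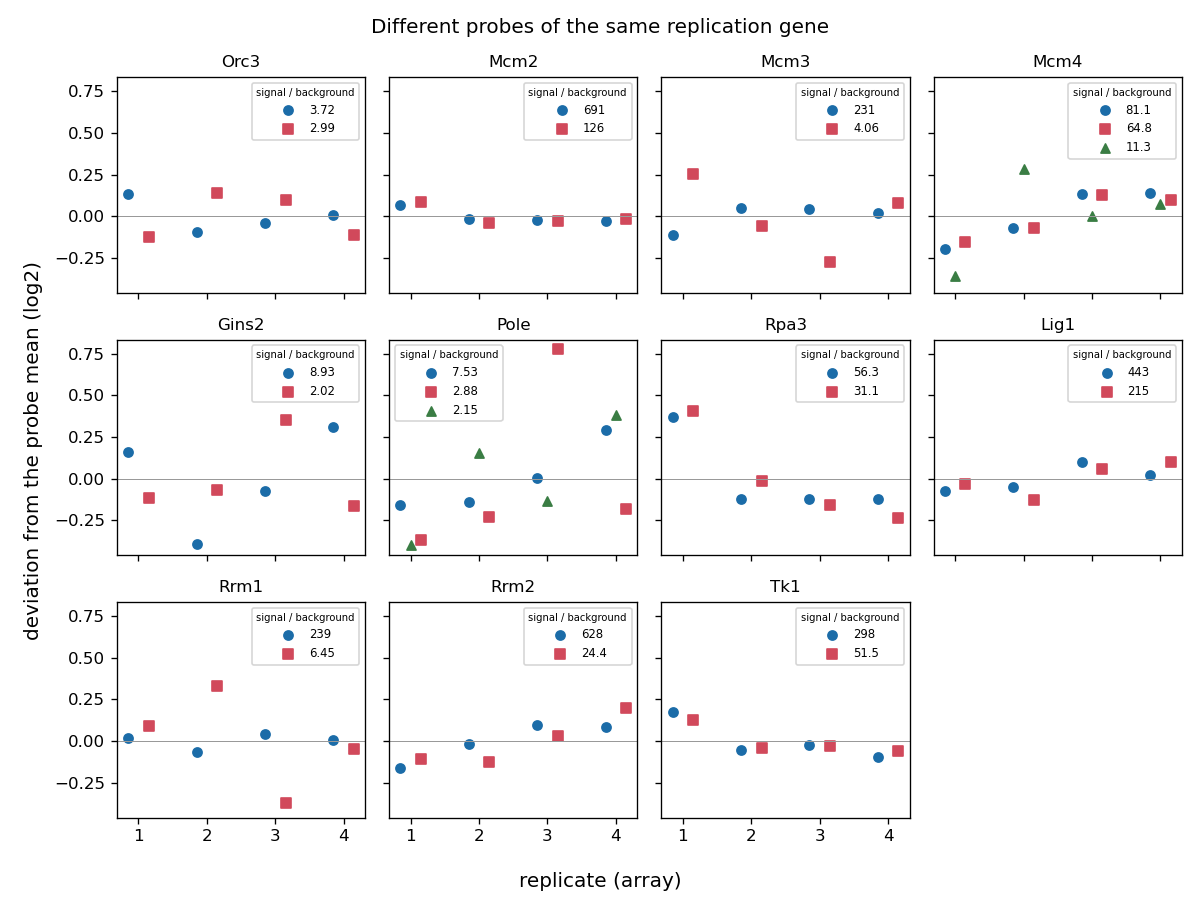
Deviation of each array from the probe mean (log2) for the 11 replication genes with several probes; colours and shapes are probes, and legends give each probe's mean signal over the local background. Points of both probes lie together for Mcm2, Rpa3 and Tk1, and apart for the dim probes of Mcm3, Pole and Rrm1.

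Repeated spots allow the same question within an array. Of the 56 probes, 7 had 10 spots on each array and 9 had 2. The SD between spots of a probe on the same array, pooled over arrays, ran from 0.011 for Tk1 to 0.128 for Rrm2 and Pold2. For Rpa3 it was 0.045, beside an SD of 0.245 between arrays, and for Pold1 0.056 beside 0.239. For Mcm2, with 10 spots, it was 0.063 beside an SD of 0.044 between arrays, and the standard error of its array values from the spots was 0.020. In 11 of these 16 probes the SD between arrays exceeded 2 times that standard error.

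Other genes of the pathway were mostly detected too, beside 52.5% of all named genes. Of 19 measured factors of the fork and of origin firing outside the members, 17 were detected, and Pole4 and Mcm9 were not. The list of chromatin assembly behind the fork had 5 of 8 detected, without Asf1a, Supt16h and Dnmt1, and other enzymes of nucleotide supply 9 of 10, without Rrm2b. Of 23 genes of the E2F and RB families and the G1/S cyclins and kinases, 20 were detected, without Rbl1, Cdk6 and Cdkn2a. Whether the listed genes that were not detected lacked RNA or had a probe that responds poorly was not tested. All 18 mitotic genes were detected. These 69 detected genes held 0 that passed the variance test (limma, adjusted p under 0.05), against 0.0115% of all genes. An unadjusted p under 0.05 was found for 4 (5.80%), near the 4.30% of all genes.

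Among the mitotic genes the low array was mostly replicate 2. Their median deviation was 0.035, -0.180, 0.055 and 0.075 in replicates 1 to 4, and replicate 2 was the lowest array for 13 of 18, against 27.4% of all detected genes. Of the 42 detected replication genes, 12 (28.6%) were lowest on replicate 2. The mitotic kinase gene Cdk1 had log2 levels of 2.96, 2.62, 3.06 and 2.96 (mean 2.90 ± 0.19), and the kinase gene Plk1 had 2.75, 2.54, 2.83 and 2.74 (mean 2.71 ± 0.13). Both were lowest on replicate 2 and were chosen after their values were seen. Under 7 other settings of outlier flags, scaling, background, probe choice and dim areas, the mitotic median on replicate 2 ran from -0.339 to -0.141. The lowest of these came with the median of all probes, which moved all detected genes to -0.169 on replicate 2. Under it replicate 2 was the lowest array for 16 of 18 mitotic genes, for 33 of 42 replication genes and for 59.4% of all detected genes. The difference between the lists was not tested. On replicate 2 the median deviation of the other lists was -0.058 for the other replication factors, -0.048 for chromatin assembly, -0.053 for nucleotide supply and -0.009 for the E2F and RB list. On replicate 1 these lists had, in the same order, medians of -0.026, 0.140, 0.062 and -0.031, beside 0.082 for the replication genes. A high median on replicate 1 was thus not particular to the replication genes. For the other replication factors that median ran from -0.097 to 0.014 under the 7 other settings. Replicate 1 was the highest array for 7 of these 17 genes (41.2%), against 34.6% of all detected genes.

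**Figure D4:**
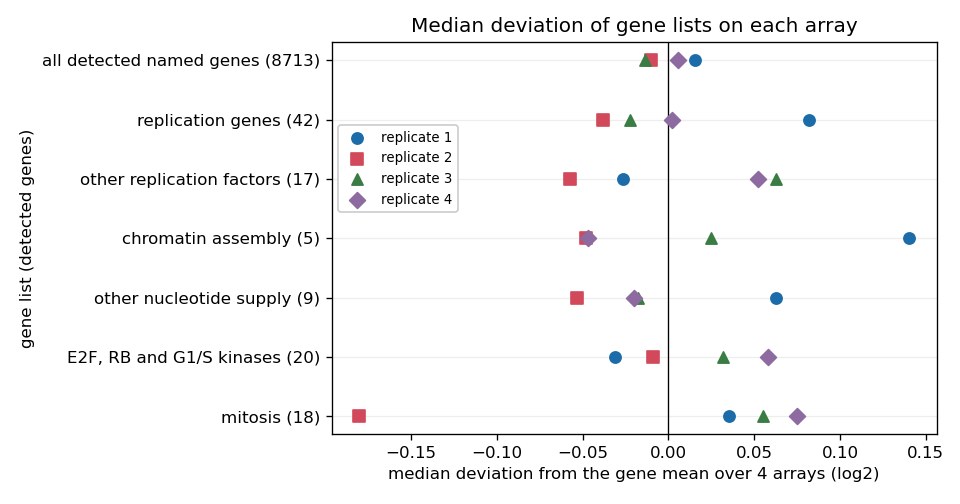
Median deviation from the gene mean (log2) on each array for the detected genes of each list, with their number in brackets. The medians run from -0.180 (mitotic genes, replicate 2) to 0.140 (chromatin assembly, replicate 1). The replication genes are highest on replicate 1 (0.082), where the other replication factors stand at -0.026. With the median of all probes the replication genes are at 0.011 on replicate 1, below replicates 3 and 4. The mitotic genes are lowest on replicate 2.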

How the data were processed

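Total RNA (100 ng) was labelled with Cy3 and hybridised to one-colour Agilent rat arrays, per the labels' protocols. The deposited intensity is the processed signal, after background correction, from Feature Extraction 11.0.1.1 (version from the submitters' processing notes), per the file headers; scaling between arrays by the authors is not stated in the sources used. Other deposited columns, flags of 0 or 1 set by the same software, gave detection and outliers.

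Control spots and outlier spots were left out and spots of a probe averaged on the log2 scale. Each array was scaled to the 75th percentile of the probes detected on all arrays, since these were 39.3% of 45598 probes; its value was 1970 to 2493 signal units. Accessions were matched without versions to the RefSeq gene table of GRCr8, which named 21109 probes; the headers name another build, so only promoter coordinates are given. A gene's level came from its brightest probe, detected ones first. The only test was an F test of residual variances in limma 3.58.1 (R 4.3.3), over 8713 genes with Benjamini-Hochberg adjustment at 0.05. It was also run on simulated data, in which the raised SDs lay further above expectation than that of any member. That run therefore does not cover the range of the members. Dim areas were blocks, in a grid of 12 by 10 per array, with at least 5 spots and 5% of spots 1 log2 unit or more below the median of the other arrays.

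All arrays form 1 group on 1 slide and scan, so no comparison between groups was made, and replicate and slide position cannot be told apart. The members and lists were chosen with earlier results of these data known. Array values are given for 1 member of each role (Orc1, Cdc6, Mcm2, Cdc45, Pola1, Pold1, Pcna, Rfc1, Fen1, Rrm1 and E2f1; those listed for single-strand binding and topoisomerase, Rpa1 and Top2a, had no probe), the 6 members with the largest and the 3 with the smallest SD, members with 1 array apart, and members not detected or with probes that disagree on detection; other genes are named from fixed lists. Alternatives were other detection rules, scalings, background correction, outlier flags, probe choice, filters, variance models, dim areas left out and each replicate left out.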

Additional observations from a re-analysis of the deposited data

Results flagged for a closer look

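Of 127 sets of 4 array values, 8 had a single value well away from the rest, with a gap to its neighbour that passed Dixon's critical share of the range; chance flags about 1 in 20. This share of 6.30% is close to the 6.47% of all detected genes. Among the replication genes these were Mcm2, high on replicate 1 (ratio 0.9019), and Rpa3, high on replicate 1 (ratio 0.9966). These ratios are of the brightest probe. The second probes were also highest on replicate 1, with a smaller share of the range in that gap. Their log2 levels were 1.51, 1.38, 1.40 and 1.41 for Mcm2 and -0.26, -0.68, -0.82 and -0.90 for Rpa3. Among other genes of the fork, Chtf8, of an alternative clamp loader, was low on replicate 1 (ratio 0.9568), with log2 levels of 0.154, 0.997, 0.961 and 0.994. Timeless, of the fork protection complex, was low on replicate 1 (ratio 0.9424), at -1.98, -1.71, -1.70 and -1.72. Wdhd1, which tethers polymerase alpha to the helicase, was low on replicate 2 (ratio 0.8606), at -4.45, -4.96, -4.49 and -4.52. The repressor gene E2f6 was high on replicate 3 (ratio 0.8448), at -1.07, -1.09, -0.91 and -1.06. Ccnb1, a mitotic cyclin, was low on replicate 2 (ratio 0.8594), as was the median of the mitotic list (ratio 0.8438).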

How the results depend on the processing

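Of 92 recomputed values of the main results, 75 stayed within the SD or within 1.5 times the reported value. For the deviations by array the margin was the members' median SD of 0.114, larger than each reported deviation. Staying within it therefore does not show that a deviation held. With the median of all probes, replicate 1 went from 0.082 to 0.011 and replicate 4 from 0.002 to 0.111, and both counted as unchanged. Scaling to the median of all probes raised the median SD of the members to 0.172 and moved their deviation to -0.197 on replicate 2 and 0.0987 on replicate 3; without each replicate in turn that SD ran from 0.0701 (without replicate 1) to 0.122. The 2 members with 1 array apart became 4 with the 75th percentile of all probes and 4 without dim areas. The 1 variable gene over all named genes became 4 with outlier flags ignored, 9 with the 75th percentile of all probes, 11 with the median of all probes, and 0 with quantile normalization, without dim areas, with no filter on dim probes or with no intensity trend; leaving out a replicate gave 0 to 9. No member was called after adjustment under any of the 16 alternatives. Members detected numbered 41 with dim areas left out and 42 or 43 under the other alternatives. The mean levels of 42 members moved with both other percentile scalings, which change the zero of the scale, those of 25 with normexp and of 11 with the mean over probes. No paired analysis was possible because there is 1 group. Signal over background limits the dim members, among them the origin recognition genes.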
